A study of Mus musculus with 18 samples.

Results

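The 10 genes described here are feedback inhibitors of mitogen-activated protein (MAP) kinase signalling: the dual-specificity phosphatases Dusp1, Dusp4, Dusp5, Dusp6, Dusp8, Dusp10, Dusp14 and Dusp16, and the Sprouty genes Spry2 and Spry4. They were chosen by symbol, are 10 of the 23420 genes in the count table, and all 10 were among the 11762 genes that passed the filter on low counts. They were followed in NIH-3T3 cells, an immortalized mouse embryonic fibroblast line, by RNA sequencing of 18 libraries. Wild-type (WT) cells and a line in which Nrf1 had been knocked out with CRISPR/Cas9 (Nrf1-KO) each received vehicle (DMSO) or 200 nM carfilzomib (CFZ, an irreversible proteasome inhibitor) for 6 or 24 h, with 3 biological replicates in each of the 6 groups. The KO is a single line, so what differs between it and WT cells cannot be told apart from what differs between any 2 sublines, and no time is given for the DMSO controls.

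Libraries held 8333148 to 23917081 counted reads (median 14419832), and levels are given as counts scaled to library size (CPM) after TMM scaling, with the SD of 3 libraries. Nfe2l1, the gene that encodes Nrf1, was at 448 ± 9.86 CPM in WT and 180.1 ± 5.27 CPM in Nrf1-KO cells under DMSO, a log2 difference of -1.31 ± 0.03 (SE). It was lower in the Nrf1-KO libraries under both CFZ times as well, while its mRNA stayed well above 0. At 6 h it was at 419 ± 7.19 CPM in Nrf1-KO and 642 ± 12.4 CPM in WT cells. At 24 h it was at 204 ± 4.45 and 565 ± 13.4 CPM. Its rise at 6 h was larger in Nrf1-KO than in WT cells, by 0.70 ± 0.05 log2 units. All 8 fibroblast markers examined were counted in every library, whereas markers of other cell types were low: Epcam had no read in any library, Pecam1 reached 0.328 CPM, Ptprc 1.33 CPM and Cdh1 13.0 CPM. The summed fibroblast markers fell between 26450 and 34780 CPM in the DMSO libraries and between 8161 and 12660 CPM after 24 h of CFZ. The part of this drop in the 24 h values below was not tested. CPM are shares of a library, so they give neither the number of cells nor the amount of RNA per cell.

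MAP kinase cascades carry signals from growth factor receptors and from stress to the nucleus through ERK, JNK and p38. Dual-specificity phosphatases switch these kinases off by removing the phosphates from both the threonine and the tyrosine of the activation loop, and many of them are themselves transcribed in response to the kinases they restrain. Sprouty proteins act upstream, between receptor tyrosine kinases and Ras and Raf, and are likewise transcribed when ERK is active. In fibroblasts both families are known as immediate or delayed early genes of serum and growth factor stimulation.

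RefSeq promoter windows, from 250 bases before to 50 bases after the start of transcription (build GRCm38.p6), were at hand for 8 of the 10 genes, all except Dusp4 and Spry4. The cAMP response element TGACGTCA, the palindrome bound by CREB and ATF proteins, was found in 2 of these 8 windows, those of Dusp1 and Dusp8, against 1.79% of 32851 promoter windows of the same length. Dusp8 held it at 2 places. The CArG box, bound by serum response factor, was found in the Dusp5 window, at 2 adjacent places, against 1.63% of all windows. Neither of these motifs overlapped another of those searched. The 3 promoters are printed from 200 to 51 bases before the start, because they carry the least common of the motifs searched, with the cAMP response elements and CArG boxes in capitals.
Dusp1, chr17:26508523-26508672, minus strand: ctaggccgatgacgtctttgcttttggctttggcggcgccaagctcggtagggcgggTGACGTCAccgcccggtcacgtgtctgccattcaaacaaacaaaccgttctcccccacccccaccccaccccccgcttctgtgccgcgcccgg
Dusp8, chr7:142095335-142095484, minus strand: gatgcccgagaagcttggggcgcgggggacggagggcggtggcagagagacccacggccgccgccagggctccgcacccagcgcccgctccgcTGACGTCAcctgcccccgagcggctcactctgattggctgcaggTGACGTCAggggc
Dusp5, chr19:53528945-53529094, plus strand: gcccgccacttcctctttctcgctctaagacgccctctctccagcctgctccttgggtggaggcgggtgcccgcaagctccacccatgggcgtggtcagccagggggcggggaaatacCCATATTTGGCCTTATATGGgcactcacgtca

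Counted from the start of transcription, the element of Dusp1 spans positions -143 to -136 and those of Dusp8 span -107 to -100 and -63 to -56. The CArG boxes of Dusp5 span -82 to -73 and -72 to -63. The other motifs searched, on both strands, were more common. CCAAT was in the windows of Dusp6, Dusp8, Dusp10 and Dusp16 (37.4% of all windows). The antioxidant response element core TGACNNNGC, the type of site to which Nrf1 binds, was in those of Dusp1 and Dusp5 (12.4%), and the E-box CACGTG was in that of Dusp1 (7.15%), where it overlapped the TGACNNNGC match. The AP-1 site TGAGTCA (5.2% of all windows) and the ETS site CCGGAAG (8.86%) had no match in the 8 windows. These matches describe the letters and were not tested for binding. In the GENCODE annotation of GRCm38, the printed stretch of Dusp5 also lies within an exon of AC137853.2, a gene on the opposite strand. The printed stretches of Dusp1 and Dusp8 lie within the GENCODE spans of these genes, so they are not upstream of every annotated start.

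CFZ raised most of these genes in both lines, and at 24 h Dusp4 had the highest fold change of the 10 in each. At 6 h Dusp4 and Spry4 were close in WT cells, with log2 fold changes of 2.93 ± 0.28 and 2.65 ± 0.19. In WT cells, 7 of the 10 genes rose and 2 fell after 6 h, and 9 rose and 1 fell after 24 h (edgeR's quasi-likelihood test, Benjamini-Hochberg adjusted p under 0.05). CFZ moved much of the transcriptome: at 6 h 35.6% of all genes tested rose and 36.2% fell, and at 24 h 43.2% rose and 40.5% fell. The median log2 fold change of the 10 genes in WT cells was 0.65 at 6 h and 0.95 at 24 h, beside -0.02 and 0.02 over all genes tested. Called changes of at least 2-fold, in either direction, were seen in 2 of the 10 at 6 h (9.63% of all genes) and in 4 at 24 h (25% of all genes). Every one of those in the 10 genes was a rise.

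In Nrf1-KO cells 8 of the genes rose and 2 fell at 6 h (34.5% and 35% of all genes), and 9 rose and 0 fell at 24 h (44.4% and 41.1%). The remaining gene at 24 h, Dusp14, had a log2 fold change of -0.03 and is described below. The median log2 fold change was 0.73 at 6 h and 1.24 at 24 h, beside -0.01 and 0.03 over all genes. The 2-fold mark was passed, in either direction, by 4 genes at 6 h (7.56% of all genes) and by 5 at 24 h (26.7%). The WT and Nrf1-KO responses use separate DMSO libraries, whereas the 6 h and 24 h responses of a line share theirs.

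**Figure D1:**
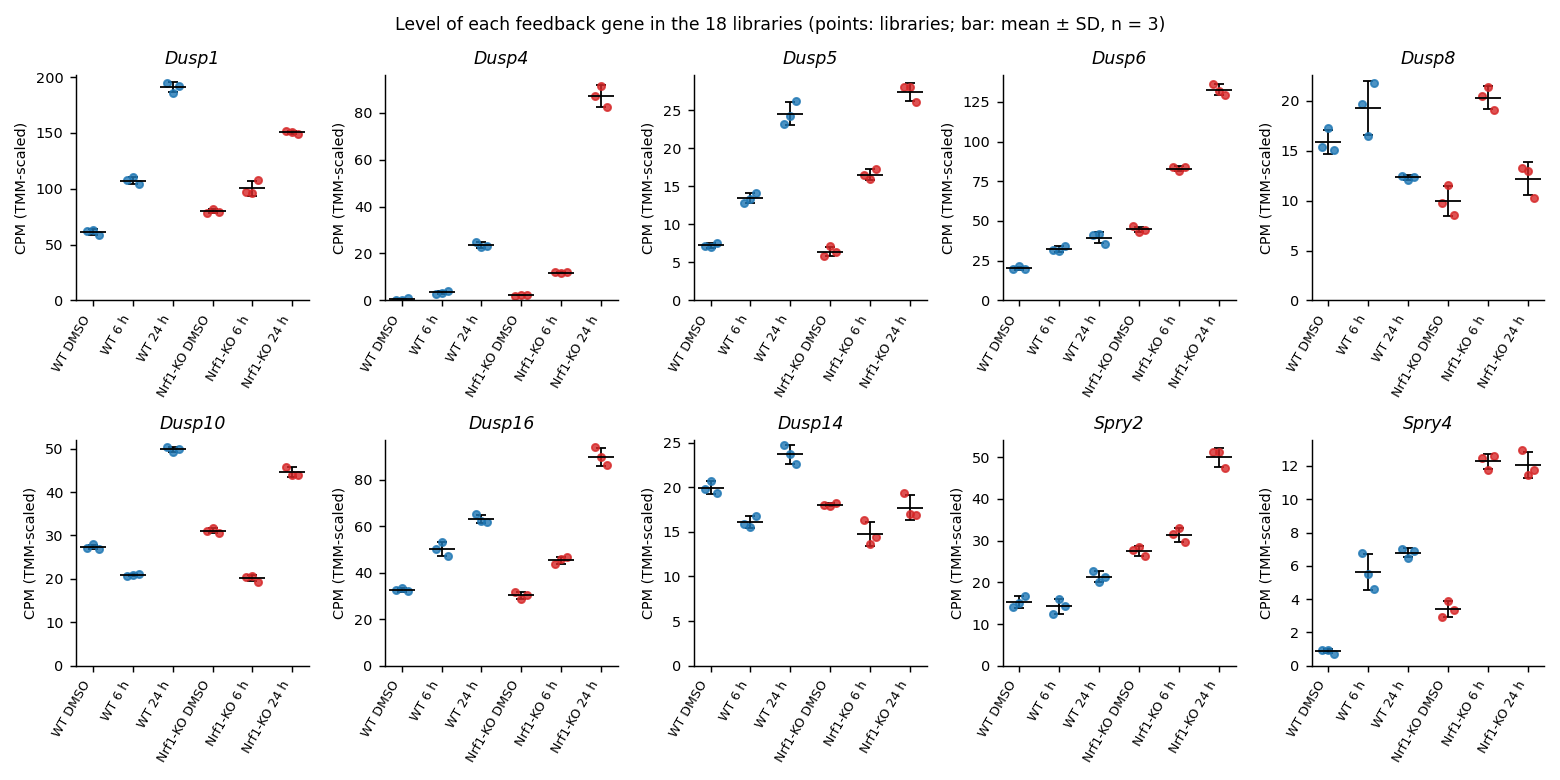
Level of the 10 feedback genes (y axis, TMM-scaled CPM from 0, a separate scale for each gene) in the 6 groups (x axis). Blue points are WT and red points Nrf1-KO libraries, and black bars give the mean ± SD of 3 libraries. Dusp4 runs from under 1 CPM in WT DMSO to 82.2 to 91.5 CPM in Nrf1-KO cells after 24 h, whereas Dusp14 stays between 13.6 and 24.7 CPM throughout.

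Dusp1 encodes the nuclear phosphatase MKP-1, which acts on p38, JNK and ERK, and it was the most abundant of the 10 per length of transcript. In WT cells it was counted at 61.8, 63.3 and 58.7 CPM under DMSO. After 6 h of CFZ it was at 108, 110.1 and 104 CPM, and after 24 h at 195, 186 and 192 CPM. Every CFZ library lay above every DMSO library, and every 24 h library above every 6 h library. The log2 fold change was 0.81 ± 0.04 (SE) after 6 h (adjusted p = 3.88e-17) and 1.64 ± 0.04 after 24 h (adjusted p = 1.84e-26, edgeR). Nrf1-KO cells started higher, at 78.2, 81.7 and 79.3 CPM, and ended lower, at 152, 150.4 and 149 CPM at 24 h, with 97.1, 96.0 and 108 CPM at 6 h between these. Their log2 fold changes were 0.32 ± 0.04 and 0.92 ± 0.04. The response was smaller in Nrf1-KO than in WT cells by 0.48 ± 0.06 log2 units at 6 h and by 0.72 ± 0.06 at 24 h, as the interaction values of -0.48 (adjusted p = 8.93e-08) and -0.72 (adjusted p = 1.54e-12) show. The order of the lines therefore turned with treatment: the KO minus WT log2 difference was 0.38 ± 0.04 in DMSO, -0.11 ± 0.04 at 6 h and -0.34 ± 0.04 at 24 h. At 6 h the 2 lines overlapped, and that call was lost under DESeq2 (-0.09), with upper-quartile scaling (-0.06) or library size alone (-0.04) in place of TMM, called both other scalings below, and without WT 6 h replicate 2 (-0.09), Nrf1-KO 6 h replicate 1 (-0.08) or Nrf1-KO 6 h replicate 2 (-0.08).

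Dusp4 encodes MKP-2, another inducible nuclear phosphatase of ERK and JNK, and showed the widest range of the 10 genes, with its highest group mean 184 times its lowest. In WT DMSO it was barely counted, with 4, 6 and 13 reads (0.203, 0.354 and 0.862 CPM). It was at 2.88, 3.20 and 4.22 CPM after 6 h of CFZ and at 25.01, 23.0 and 23.1 CPM after 24 h. The Nrf1-KO libraries held it at 2.10, 2.23 and 2.20 CPM under DMSO, at 12.1, 11.6 and 11.99 CPM after 6 h, and at 87.2, 91.5 and 82.2 CPM after 24 h. No 2 groups overlapped, and at each treatment the Nrf1-KO libraries lay above the WT libraries. Rises of 7.60-fold and 51.9-fold were fitted in WT cells (log2 2.93 ± 0.28 and 5.70 ± 0.17), and of 5.44-fold and 39.8-fold in Nrf1-KO cells (log2 2.44 ± 0.15 and 5.31 ± 0.09), with adjusted p between 9.41e-31 and 8.31e-11 by edgeR. The KO minus WT log2 difference was 2.27 ± 0.30 in DMSO, 1.79 ± 0.14 at 6 h and 1.89 ± 0.06 at 24 h of CFZ. Both interactions missed the threshold, at -0.48 ± 0.36 (adjusted p = 0.306) and -0.38 ± 0.33 (adjusted p = 0.32). These values rest on few reads in WT DMSO. Without its replicate 3 the WT responses were 3.61 and 6.38, the DMSO difference was 2.96, and the interactions were -1.17 and -1.07 and passed the threshold. Without its replicate 1 the WT responses were 2.52 and 5.26, the DMSO difference was 1.88 and the 24 h interaction was 0.02. Adjusted p over the 19 alternatives ran from 0.0288 to 0.855 for the 6 h interaction and from 0.0221 to 0.99 for the 24 h interaction.

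Dusp5, a nuclear phosphatase selective for ERK, rose in steps in both lines from nearly equal DMSO levels. It was at 7.10, 7.03 and 7.56 CPM in WT DMSO, at 12.8, 13.4 and 14.2 CPM after 6 h and at 23.2, 24.3 and 26.3 CPM after 24 h. The Nrf1-KO libraries were at 5.84, 7.13 and 6.32 CPM under DMSO, at 16.4, 15.9 and 17.3 CPM after 6 h and at 28.0, 28.1 and 26.1 CPM after 24 h. The lines overlapped under DMSO and at 24 h but not at 6 h, where every Nrf1-KO library was higher. The log2 fold changes were 0.90 ± 0.09 and 1.78 ± 0.08 in WT cells and 1.36 ± 0.09 and 2.09 ± 0.08 in Nrf1-KO cells. The response was larger in Nrf1-KO cells by 0.46 ± 0.13 after 6 h (adjusted p = 0.00555) and by 0.32 ± 0.12 after 24 h (adjusted p = 0.0213). The 24 h interaction lost its call under DESeq2 (0.32) and library size alone (0.24), and without WT DMSO replicate 3 (0.29), Nrf1-KO DMSO replicate 1 (0.27) or Nrf1-KO DMSO replicate 3 (0.30). The KO minus WT log2 difference was -0.17 ± 0.10 in DMSO (adjusted p = 0.172), 0.29 ± 0.08 at 6 h and 0.15 ± 0.06 at 24 h. That last call was lost under DESeq2 (0.16) and library size alone (0.12), and without replicate 1 or 2 of WT 24 h (0.12 and 0.13) or of Nrf1-KO 24 h (0.15 and 0.14). In GENCODE, 22.1% of the exonic bases of Dusp5 overlap AC137853.2 on the opposite strand. The library kit kept strand, but the strand setting of the counting is not given in the sources used here, so reads of the 2 genes may be mixed.

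Dusp6 encodes MKP-3, the cytoplasmic phosphatase specific to ERK and one of the best known readouts of ERK activity, and it separated the lines at every treatment. In WT cells it was at 19.6, 21.5 and 19.6 CPM under DMSO, at 31.6, 31.1 and 34.4 CPM after 6 h and at 41.2, 41.9 and 35.5 CPM after 24 h. Nrf1-KO cells held it at 46.6, 43.2 and 44.4 CPM under DMSO, at 83.7, 81.3 and 83.8 CPM after 6 h and at 136, 132 and 129 CPM after 24 h. Even untreated Nrf1-KO libraries lay above every CFZ-treated WT library. The KO minus WT log2 difference widened from 1.14 ± 0.06 in DMSO to 1.36 ± 0.06 at 6 h and 1.75 ± 0.05 at 24 h, the last a 3.37-fold difference (adjusted p = 2.49e-24, edgeR). The response to CFZ was 0.68 ± 0.07 and 0.96 ± 0.06 in WT cells and 0.89 ± 0.05 and 1.57 ± 0.05 in Nrf1-KO cells. At 24 h the interaction was 0.61 ± 0.08 (adjusted p = 9.32e-08). At 6 h it was 0.21 ± 0.08 with an adjusted p of 0.0454, which was lost under DESeq2 (0.22), without the expression filter (0.19), and without replicate 1 or 2 of WT DMSO (0.21 and 0.17), 1 or 2 of WT 6 h (0.17 and 0.16), 2 or 3 of Nrf1-KO DMSO (0.19 and 0.21) or 1 or 3 of Nrf1-KO 6 h (0.20 and 0.21).

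**Figure D2:**
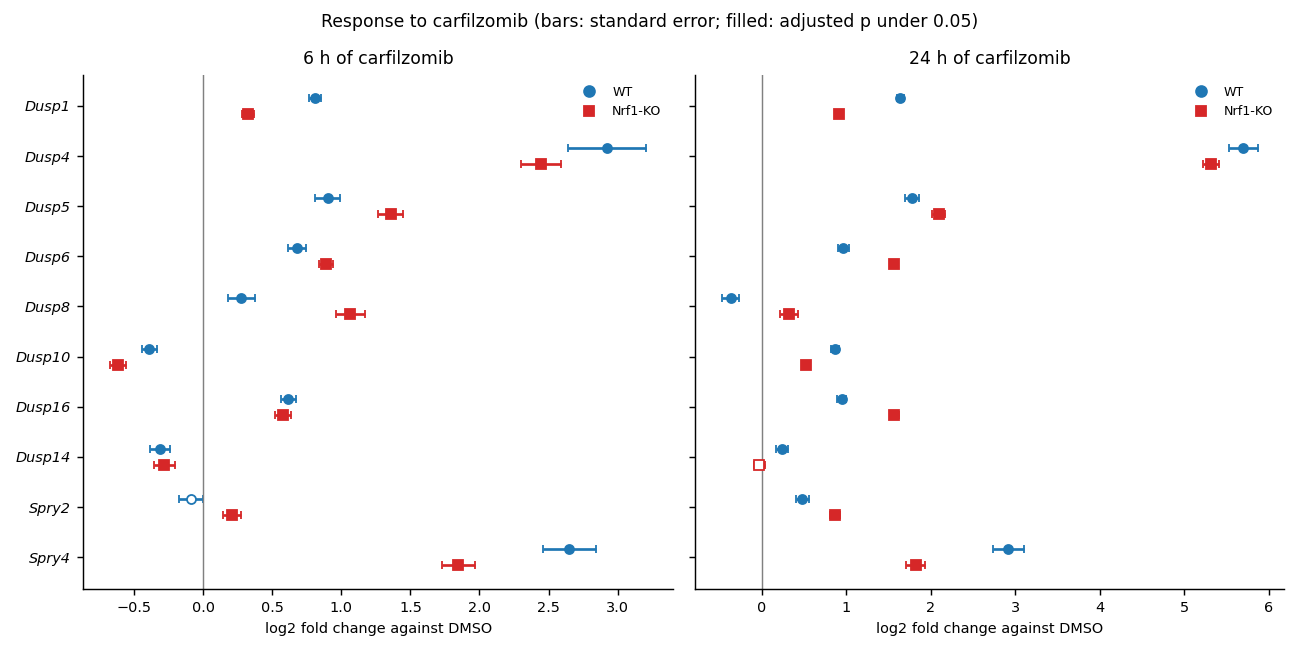
Response of each feedback gene to CFZ (x axis, log2 fold change against DMSO of the same line) after 6 h on the left and 24 h on the right, in WT (blue circles) and Nrf1-KO cells (red squares). Bars are standard errors and filled symbols have an adjusted p under 0.05. Dusp4 lies farthest to the right at 24 h, at 5.70 in WT and 5.31 in Nrf1-KO cells, and Dusp8 is the only gene to the left of 0 in WT cells at 24 h, at -0.37.

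Dusp8, Dusp10 and Dusp16 encode phosphatases directed mainly at JNK and p38, and the 3 followed 3 different courses. Dusp8 peaked at 6 h and had fallen by 24 h. In WT cells it was at 15.4, 17.3 and 15.1 CPM under DMSO, at 19.6, 16.5 and 21.8 CPM after 6 h and at 12.5, 12.1 and 12.4 CPM after 24 h. Nrf1-KO cells had 9.78, 11.6 and 8.56 CPM under DMSO, at 20.5, 21.4 and 19.1 CPM after 6 h and at 13.3, 13.0 and 10.3 CPM after 24 h. It was thus lower in Nrf1-KO than WT cells under DMSO, by a log2 difference of -0.70 ± 0.10 (adjusted p = 8.73e-07), and overlapped with WT at both CFZ times, with differences of 0.09 ± 0.10 and -0.01 ± 0.11. The 6 h rise was 0.28 ± 0.10 in WT and 1.07 ± 0.11 in Nrf1-KO cells, an interaction of 0.79 ± 0.14 (adjusted p = 4.46e-05). At 24 h it was -0.37 ± 0.10 in WT and 0.32 ± 0.11 in Nrf1-KO cells, an interaction of 0.69 ± 0.15 (adjusted p = 0.000248). From 6 to 24 h it fell by 0.65 in WT and by 0.75 in Nrf1-KO cells on the log2 scale, the only 1 of the 10 genes to fall over this interval. Of these calls, the WT rise at 6 h was lost under both other scalings (0.17 and 0.14) and without WT 6 h replicate 3 (0.19). The Nrf1-KO rise at 24 h was lost under both other scalings (0.21 and 0.14) and without Nrf1-KO DMSO replicate 3 (0.18), Nrf1-KO 24 h replicate 1 (0.23) or replicate 2 (0.23).

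Dusp10 (MKP-5) fell first and then rose. WT libraries had it at 27.1, 28.0 and 27.0 CPM under DMSO, at 20.7, 20.8 and 21.1 CPM after 6 h and at 50.4, 49.3 and 49.95 CPM after 24 h. Nrf1-KO cells went through 31.0, 31.8 and 30.6 CPM, then 20.5, 20.6 and 19.3 CPM, then 45.8, 43.9 and 44.0 CPM. The dip and the later rise were separated from DMSO in every library of both lines. The log2 fold changes were -0.39 ± 0.05 and 0.87 ± 0.05 in WT cells and -0.62 ± 0.06 and 0.52 ± 0.04 in Nrf1-KO cells, and between 6 and 24 h the gene rose 2.39-fold and 2.20-fold. The interaction at 6 h was -0.23 ± 0.08 (adjusted p = 0.0334), and that at 24 h was -0.35 ± 0.06 (adjusted p = 2.54e-05). The 6 h value lost its call under DESeq2 (-0.23) and both other scalings (-0.19 and -0.21), and without WT DMSO replicate 3 (-0.22), Nrf1-KO DMSO replicate 2 (-0.21), Nrf1-KO 6 h replicate 1 (-0.24) or replicate 3 (-0.21). Between the lines, KO minus WT was 0.18 ± 0.05 in DMSO, -0.04 ± 0.06 at 6 h (adjusted p = 0.62) and -0.16 ± 0.04 at 24 h.

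Dusp16 (MKP-7) climbed at both times and differed most between the lines at 24 h. WT libraries started at 32.6, 33.5 and 31.95 CPM under DMSO, at 49.98, 53.2 and 47.1 CPM after 6 h and at 65.2, 62.4 and 61.6 CPM after 24 h. The level in Nrf1-KO cells was 31.8, 28.8 and 30.3 CPM under DMSO, at 43.7, 45.8 and 46.6 CPM after 6 h and at 93.9, 89.8 and 86.1 CPM after 24 h. The 24 h Nrf1-KO libraries lay above all others. The log2 fold change at 6 h was 0.62 ± 0.05 in WT and 0.58 ± 0.06 in Nrf1-KO cells, with an interaction of -0.04 ± 0.08 (adjusted p = 0.741). At 24 h it was 0.94 ± 0.05 and 1.57 ± 0.05, with an interaction of 0.63 ± 0.07 (adjusted p = 5.1e-09). Between the lines it differed by -0.11 ± 0.05 in DMSO (adjusted p = 0.0875), which passed the threshold without Nrf1-KO DMSO replicate 1 (-0.14). It was -0.15 ± 0.05 at 6 h and 0.52 ± 0.04 at 24 h. The 6 h call was lost under DESeq2 (-0.13), both other scalings (-0.10 and -0.08), and without WT 6 h replicate 2 (-0.11) or Nrf1-KO 6 h replicate 1 (-0.12).

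Dusp14 (MKP-6), a small phosphatase that lacks the kinase-binding domain of the others, moved least, with its highest group mean 1.60 times its lowest. In WT cells it was at 19.8, 20.7 and 19.4 CPM under DMSO, at 15.9, 15.5 and 16.8 CPM after 6 h and at 24.7, 23.7 and 22.6 CPM after 24 h. In Nrf1-KO cells it was at 17.99, 17.9 and 18.2 CPM, then 16.3, 13.6 and 14.4 CPM, then 19.3, 17.0 and 16.9 CPM. A dip at 6 h was common to both lines, at -0.31 ± 0.07 in WT and -0.28 ± 0.08 in Nrf1-KO cells, and its interaction was 0.03 ± 0.11 (adjusted p = 0.861). At 24 h the fold change was 0.24 ± 0.07 in WT cells (adjusted p = 0.00153) and -0.03 ± 0.07 in Nrf1-KO cells (adjusted p = 0.673), with an interaction of -0.27 ± 0.10 (adjusted p = 0.0156). The WT rise at 24 h was lost under both other scalings (0.10 and 0.13), the interaction under DESeq2 (-0.27), and the Nrf1-KO value passed the threshold as a fall with library size alone (-0.21). At 24 h Dusp14 was lower in Nrf1-KO cells by a log2 difference of -0.41 ± 0.07 (adjusted p = 3.02e-06), with no overlap. From 6 to 24 h it rose by 0.25 ± 0.08 in Nrf1-KO cells, a call lost without Nrf1-KO 6 h replicate 2 (0.18) or Nrf1-KO 24 h replicate 1 (0.18).

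Spry2 and Spry4, which restrain receptor tyrosine kinase signalling upstream of ERK, were both higher in Nrf1-KO cells at every treatment but answered CFZ differently. Spry2 was at 14.1, 15 and 16.8 CPM in WT DMSO, at 12.4, 16.02 and 14.3 CPM after 6 h and at 22.7, 20.1 and 21.2 CPM after 24 h. Nrf1-KO cells had levels of 27.8, 28.4 and 26.2 CPM under DMSO, at 31.5, 33.0 and 29.6 CPM after 6 h and at 51.1, 51.3 and 47.4 CPM after 24 h. As for Dusp6, every untreated Nrf1-KO library lay above every WT library. On the log2 scale KO minus WT was 0.85 ± 0.07 in DMSO, 1.15 ± 0.08 at 6 h and 1.24 ± 0.07 at 24 h. WT cells had a response of -0.09 ± 0.09 at 6 h (adjusted p = 0.363) and of 0.48 ± 0.08 at 24 h, and Nrf1-KO cells of 0.21 ± 0.07 and 0.87 ± 0.06. An interaction of 0.30 ± 0.11 (adjusted p = 0.0341) was fitted for the earlier time and of 0.39 ± 0.10 (adjusted p = 0.00117) for the later. The 6 h values were less firm. The interaction lost its call without WT DMSO replicate 3 (0.23), WT 6 h replicate 1 (0.18) or 3 (0.27), Nrf1-KO DMSO replicate 3 (0.26), or Nrf1-KO 6 h replicate 1 (0.30) or 2 (0.26). The Nrf1-KO rise lost it under both other scalings (0.13 and 0.09) and without Nrf1-KO DMSO replicate 3 (0.16) or Nrf1-KO 6 h replicate 2 (0.17). The WT value passed the threshold as a fall under both other scalings (-0.20 and -0.22) and was 0.01 without WT 6 h replicate 1.

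Spry4 rose by 6 h in both lines to a range that the 24 h libraries shared. The WT level was 0.964, 0.945 and 0.729 CPM under DMSO (19, 16 and 11 reads), at 6.75, 5.53 and 4.59 CPM after 6 h and at 7.01, 6.48 and 6.88 CPM after 24 h. Nrf1-KO cells counted it at 2.96, 3.88 and 3.35 CPM under DMSO, at 12.5, 11.7 and 12.6 CPM after 6 h and at 13.0, 11.5 and 11.7 CPM after 24 h. The 6 and 24 h libraries overlapped in both lines, and the log2 change between these times was 0.26 ± 0.13 in WT (adjusted p = 0.0627) and -0.03 ± 0.10 in Nrf1-KO cells (adjusted p = 0.811). The WT value passed the threshold with library size alone (0.29) and without WT 6 h replicate 1 (0.37). Against DMSO the rise was 6.28-fold and 7.54-fold in WT cells (log2 2.65 ± 0.19 and 2.91 ± 0.18) and 3.60-fold and 3.53-fold in Nrf1-KO cells (log2 1.85 ± 0.12 and 1.82 ± 0.11). The response was smaller in Nrf1-KO cells, with an interaction of -0.80 ± 0.25 for 6 h (adjusted p = 0.0102) and of -1.09 ± 0.24 for 24 h (adjusted p = 0.000222), the latter the only interaction among the 10 genes past 2-fold. The KO minus WT log2 difference was accordingly 1.92 ± 0.20 in DMSO, 1.12 ± 0.12 at 6 h and 0.83 ± 0.10 at 24 h.

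Set side by side, 8 of the 10 genes rose between 6 and 24 h in each line, Dusp8 fell in each and Spry4 did not pass the test in either. Over all genes 36.9% rose and 35.4% fell in WT cells over this interval, and 38.7% rose and 38.3% fell in Nrf1-KO cells. Nrf1-KO cells differed from WT cells under DMSO in 7 of the 10 genes, 6 higher (25.7% of all genes) and 1 lower (29.1%). The 6 were Dusp1, Dusp4, Dusp6, Dusp10, Spry2 and Spry4, and the 1 was Dusp8. At 6 h 5 were higher and 2 lower (30.5% and 30.8% of all genes), and at 24 h 6 were higher and 3 lower (35.6% and 36.4%). A called difference of at least 2-fold, in either direction, was seen in 3 genes in DMSO (4.97% of all genes), 4 at 6 h (7.31%) and 3 at 24 h (12.2%). All of these genes were higher in Nrf1-KO cells. Dusp4 and Dusp6 were among these at all 3 treatments. Among the 4 markers of other cell types, Cdh1 reached 13.0 CPM, Ptprc 1.33 CPM and Pecam1 0.328 CPM, and Epcam had no read. The 4 summed markers, with Cdh1 the highest of them, also differed between the lines and with CFZ. They stood at 6.14 to 6.497 CPM in WT and 12.03 to 14.3 CPM in Nrf1-KO libraries under DMSO, at 1.02 to 1.37 and 4.40 to 5.79 CPM at 6 h, and at 0.36 to 1.02 and 1.62 to 1.83 CPM at 24 h. Their part in the CFZ responses and in the differences between the lines was not tested.

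**Figure D3:**
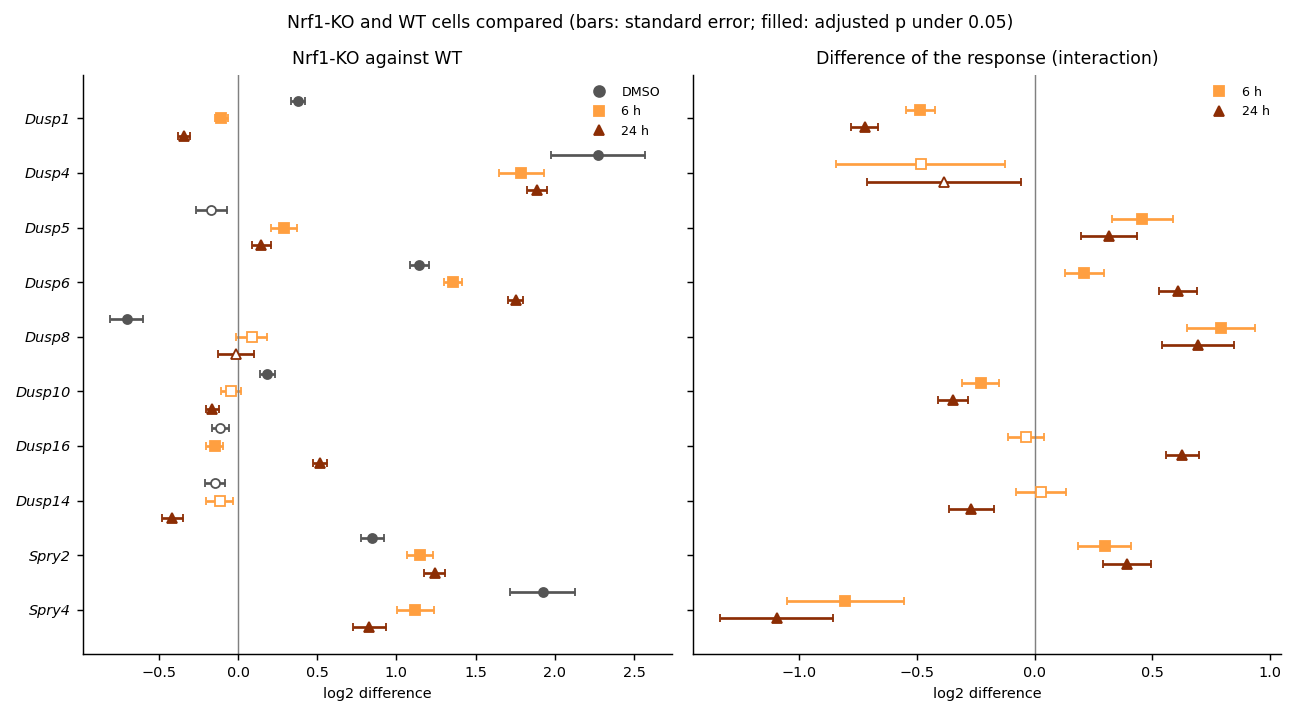
Difference between the lines for each feedback gene (x axis, log2 scale). The left panel gives Nrf1-KO minus WT within DMSO (grey circles), 6 h (orange squares) and 24 h of CFZ (brown triangles), and the right panel the difference of the CFZ response between the lines; bars are standard errors and filled symbols have an adjusted p under 0.05. Dusp4, Dusp6, Spry2 and Spry4 lie to the right of 0 at all 3 treatments on the left, while on the right Spry4 lies farthest to the left, at -1.09 for 24 h.

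The response to CFZ differed between the lines in 7 of the 10 genes at 6 h, 4 with a larger log2 change in Nrf1-KO cells (19.8% of all genes) and 3 with a smaller one (18.4%). At 24 h it differed in 9, 5 larger (29.7%) and 4 smaller (30%). The median interaction of the 10 genes was -0.00 at 6 h and 0.02 at 24 h, so the genes did not shift in 1 direction. Without Nrf1-KO 6 h replicate 1, only 4 genes kept a call at 6 h, since Dusp6, Dusp10 and Spry2 lost theirs. At both times the change was larger in Nrf1-KO cells for Dusp5, Dusp6, Dusp8 and Spry2 and smaller for Dusp1, Dusp10 and Spry4, in the main test. The 2-fold mark was passed by 0 of the 10 at 6 h (2.78% of all genes) and by 1 at 24 h (8.6%), in edgeR's test.

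Compared per kilobase of annotated exon, Dusp1 was the most abundant of the 10 genes in all 6 groups, from 18.5 ± 0.70 CPM per kb in WT DMSO to 57.7 ± 1.37 in WT cells after 24 h. Under DMSO the WT cells followed it with Dusp14 at 10.3 ± 0.36 and Dusp10 at 8.99 ± 0.18, and had Spry4 at 0.185 ± 0.03 and Dusp4 at 0.173 ± 0.13 CPM per kb, which did not differ beyond their spread. In Nrf1-KO cells after 24 h, Dusp6 at 42.3 ± 1.11 and Dusp4 at 31.7 ± 1.71 came next to Dusp1 at 45.4 ± 0.51. Between DMSO and 24 h, Dusp4 moved by group mean from the tenth to the seventh place per length in WT cells and from the ninth to the third in Nrf1-KO cells. Some of these places were close. In WT cells at 24 h Dusp4 was at 8.64 ± 0.42 and Dusp16 at 8.09 ± 0.24. In Nrf1-KO DMSO Dusp4 was at 0.794 ± 0.02 and Spry4 at 0.715 ± 0.10. Spry4 at 2.54 ± 0.17 and Dusp8 at 2.50 ± 0.34 were lowest in Nrf1-KO cells at 24 h and did not differ beyond their spread. The highest group mean was that of Nrf1-KO cells at 24 h for 5 genes, of WT cells at 24 h for 3 and of Nrf1-KO cells at 6 h for 2.

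Across the 18 libraries the genes varied together in part. Dusp5 and Dusp16 had a Pearson r of 0.94 on log2 CPM, Dusp6 and Spry2 of 0.928, and Dusp4 and Dusp5 of 0.914. Dusp8 ran against Dusp10, at -0.713. These values describe libraries that share 6 groups, so they mostly restate the group means. Over all genes tested, the gene most like Dusp1 was Ankrd28 (0.988), the one most like Dusp4 was Slc15a4 (0.984), the one most like Dusp5 was Mib2 (0.991) and the one most like Dusp6 was Ereg (0.985), which encodes the receptor ligand epiregulin. Trib3, a stress-induced pseudokinase gene, was most like Dusp8 (0.930), Hoxc6 most like Dusp10 (0.993) and Pvrl1 most like Dusp14 (0.931). Ccdc50 was most like Spry2 (0.985) and St13, which encodes a co-chaperone of Hsp70, most like Spry4 (0.974). The next in line were Zswim4 (Dusp1), Fyttd1 (Dusp4), Akirin1 (Dusp5), Pgam5 (Dusp6), Kpnb1 (Dusp8), Wdr81 (Dusp10), Tshz1 (Dusp14), Ankrd13b (Spry2) and Hspa4l (Spry4), with r between 0.9275 and 0.9921.

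**Figure D4:**
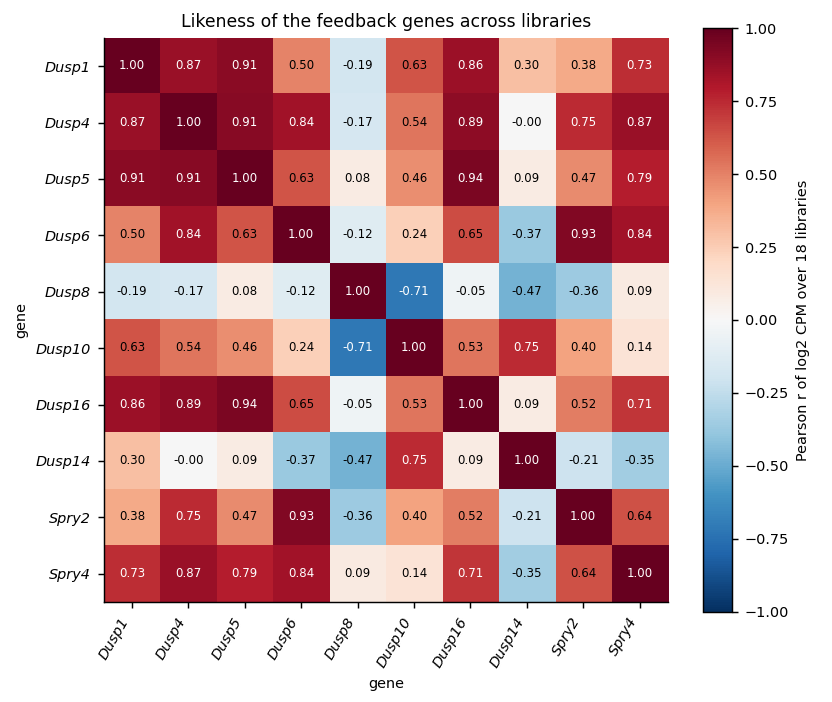
Pearson r of log2 CPM over the 18 libraries for each pair of the 10 feedback genes (both axes list the genes; red is positive, blue negative). Dusp1, Dusp4, Dusp5 and Dusp16 form a block with r of 0.857 or more, Dusp6 and Spry2 stand together at 0.928, and Dusp8 is negative with most others.

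Other genes of the pathway moved in both directions. Of 17 further dual-specificity phosphatases 9 passed the filter on low counts, and of these 2 rose and 5 fell in WT cells at 6 h (35.6% and 36.2% of all genes). At 24 h 4 rose and 4 fell (43.2% and 40.5%), and only these 24 h counts were near the shares over all genes. The median log2 fold change of the 9 was -0.43 at 6 h and 0.10 at 24 h, beside -0.02 and 0.02 over all genes. Dusp7 (MKP-X), like Dusp6 a cytoplasmic ERK phosphatase, fell in WT cells from 42.3 ± 3.57 CPM to 20.6 ± 0.32 at 6 h (log2 -1.03 ± 0.07) and 15.3 ± 0.48 at 24 h (-1.47 ± 0.07). Dusp3 rose to a log2 fold change of 0.63 ± 0.04 at 24 h, and Dusp12 to 0.27 ± 0.09 at 6 h, which was lost under both other scalings (0.16 and 0.14). Dusp9, the third cytoplasmic ERK phosphatase, had a larger change in Nrf1-KO cells at 24 h (interaction 0.85 ± 0.17), going there from 5.59 ± 0.50 to 14.9 ± 0.87 CPM against 3.66 ± 0.18 to 5.48 ± 0.355 in WT cells. Dusp19 had a smaller one (-0.37 ± 0.15), lost under DESeq2 (-0.37) and without WT DMSO replicate 2 (-0.34) or 3 (-0.34), WT 24 h replicate 2 (-0.22), Nrf1-KO DMSO replicate 1 (-0.35) or 2 (-0.33), or Nrf1-KO 24 h replicate 2 (-0.31).

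The 8 other Sprouty, Spred and receptor feedback genes all passed the filter, and in WT cells 2 rose and 6 fell at 24 h (43.2% and 40.5% of all genes). Spry1 fell from 5.03 ± 0.60 CPM in WT DMSO to 2.59 ± 0.39 at 6 h (log2 -0.96 ± 0.18) and 0.784 ± 0.21 at 24 h (-2.64 ± 0.23). In Nrf1-KO cells it was at 5.78 ± 0.35 and, at 24 h, 3.03 ± 0.87 CPM, and the 24 h interaction was 1.73 ± 0.31 (adjusted p = 1.39e-05). Errfi1, which encodes the EGF receptor inhibitor Mig-6, rose in WT cells by 1.09 ± 0.06 and 1.07 ± 0.06 on the log2 scale. Spred2 had a smaller response in Nrf1-KO cells (interaction -0.32 ± 0.08). At 24 h of CFZ all 8 were higher in Nrf1-KO than WT cells (35.6% of all genes), with a median log2 difference of 0.62. In Nrf1-KO cells at 6 h, where 34.5% of all genes rose and 35% fell, 3 of the 8 changed, which became 7 under either of the other scalings.

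In WT cells at 24 h the genes of the kinase cascade rose and fell about as often as all genes did, but not in every comparison. Of 27 Ras and MAP kinase components 25 passed the filter, and 11 rose and 11 fell in WT cells at 24 h (43.2% and 40.5% of all genes), with a median of -0.08. At 6 h 13 rose and 6 fell in WT cells (35.6% and 36.2% of all genes). Between the lines, 3 were higher and 13 lower in Nrf1-KO cells in DMSO (25.7% and 29.1% of all genes). With CFZ 3 were higher and 16 lower at 6 h (30.5% and 30.8%), and 8 higher and 14 lower at 24 h (35.6% and 36.4%). Mapk9, which encodes the kinase JNK2, rose in WT cells from 79.2 ± 0.90 to 134 ± 4.02 CPM at 6 h and 186 ± 3.51 at 24 h (log2 0.76 ± 0.04 and 1.23 ± 0.04). In Nrf1-KO cells it went from 59.9 ± 2.73 to 62.5 ± 2.81 and 67.6 ± 1.61 CPM, an interaction of -1.06 ± 0.06 at 24 h. Map2k6, which encodes the p38 kinase kinase MKK6, had log2 fold changes of -2.68 ± 0.16 at 6 h and -1.68 ± 0.14 at 24 h in WT cells, with an interaction of 1.04 ± 0.17 at 24 h.

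The 12 genes of ERK transcriptional output all passed the filter, and most were higher in Nrf1-KO than WT cells: 10 higher and 2 lower in DMSO (25.7% and 29.1% of all genes), and 8 higher and 3 lower at 24 h (35.6% and 36.4%). The median difference was 0.68 in DMSO and 1.04 at 24 h. In WT cells 7 rose and 3 fell at 24 h (43.2% and 40.5% of all genes). Ier3, an early response gene, rose from 8.38 ± 0.50 to 361 ± 6.81 CPM in WT cells at 24 h (log2 5.42 ± 0.05). Fosl1, which encodes the AP-1 subunit Fra-1, rose by 3.85 ± 0.07 at 6 h, while Etv1, an ETS factor gene, changed by -1.46 ± 0.21 at 6 h and Ccnd1, which encodes cyclin D1, by -1.87 ± 0.06 at 24 h. Phlda1 responded more in Nrf1-KO cells at 24 h (interaction 1.05 ± 0.10), and the receptor gene Epha2 less (-1.56 ± 0.11).

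**Figure D5:**
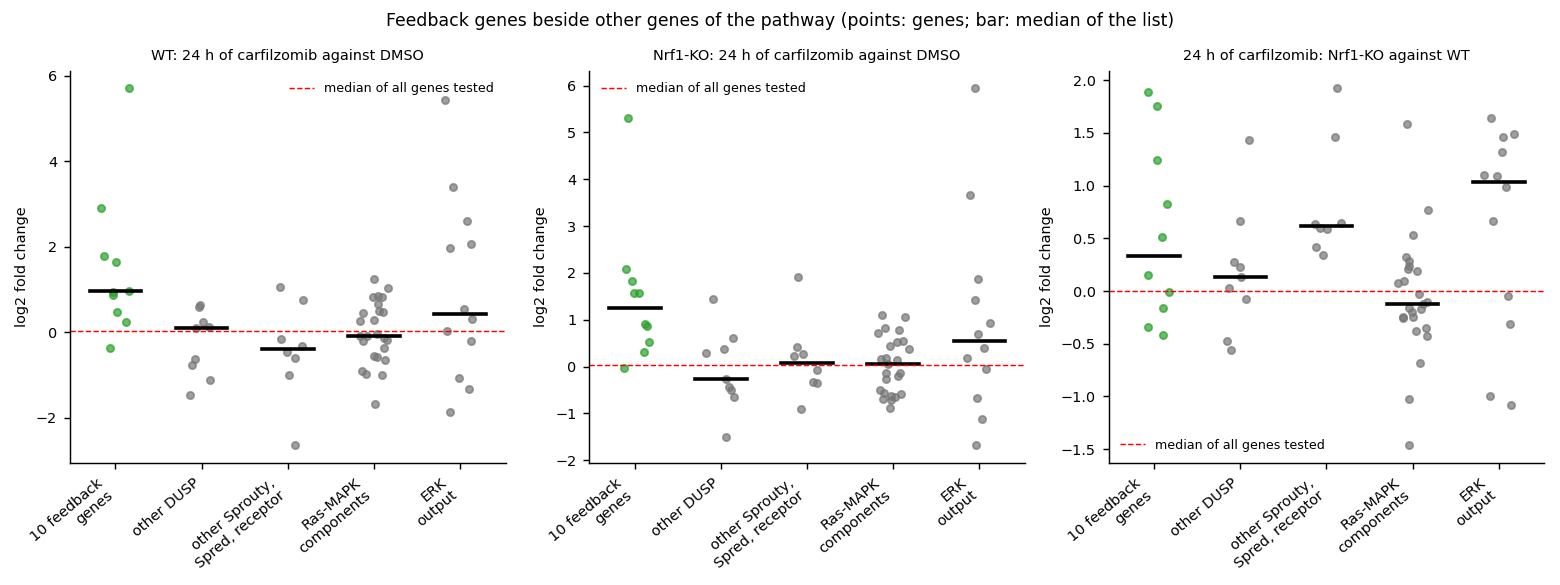
Log2 fold changes (y axis) of the 10 feedback genes (green) and of the tested genes of 4 further lists (grey), for 24 h of CFZ against DMSO in WT cells (left), the same in Nrf1-KO cells (middle) and Nrf1-KO against WT after 24 h (right). Black bars are list medians and the dashed line is the median of all genes tested. The median of the feedback genes is 0.95 on the left and 1.24 in the middle, and that of ERK output is the highest on the right, at 1.04.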

How the data were processed

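RNA of 18 cultures was sequenced as paired reads of 125 bases from a stranded mRNA library. The authors aligned reads with STAR and deposited raw read counts per gene symbol in 1 table; versions, genome build, annotation and strand setting are not given in the sources used here. Columns were matched to samples by their names. Of 23420 rows, 6577 had no read and 27 carried date-like symbols, which touched no gene named here. In R 4.3.3, edgeR 4.0.16 (filterByExpr, TMM, quasi-likelihood test, 1 model of 6 groups, 11 contrasts) was fitted to 11762 genes, and p-values were Benjamini-Hochberg adjusted over all of them, with a threshold of 0.05. DESeq2 1.42.0, upper-quartile scaling, library size alone, 2 other filters, the compared groups only, a replicate block and leaving out each library were the alternatives. The test was also run on simulated counts in which all genes had the same dispersion and few were changed. These settings differ from the data, so the run does not give error rates for the comparisons here. Within-group pairs of libraries differed by more than sampling noise. The p-values rest on the spread between the 3 replicates of a group, estimated over all 6 groups together. This spread may be partly technical. Fold changes use a prior count of 0.125. Gene lengths came from GENCODE exons of GRCm38. Motifs were searched in RefSeq promoters.

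The 10 genes, the lists and the motifs were chosen with earlier results of these data known, so counts over them are descriptions. Named besides the 10 genes and Nfe2l1 were, from each list, the genes of at least 50 mean reads that rose or fell most past the threshold in WT cells at 6 h and 24 h and in the 24 h interaction, and the 2 genes most correlated with each of the 10, except those of Dusp16, which are not reported here.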

Additional observations from a re-analysis of the deposited data

Results flagged for a closer look

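The results below were singled out because the response to CFZ differed between the WT and Nrf1-KO lines by a direct test of the difference (interaction term, edgeR). At 6 h, the log2 response in Nrf1-KO minus that in WT cells was 0.79 for Dusp8, 0.46 for Dusp5, 0.30 for Spry2 and 0.21 for Dusp6, and it was -0.80 for Spry4, -0.48 for Dusp1 and -0.23 for Dusp10. At 24 h it was 0.69 for Dusp8, 0.63 for Dusp16, 0.61 for Dusp6, 0.39 for Spry2 and 0.32 for Dusp5, and it was -1.09 for Spry4, -0.72 for Dusp1, -0.35 for Dusp10 and -0.27 for Dusp14. Dusp1 and Dusp10 had a lower log2 response in Nrf1-KO cells at both times. Their DMSO level was higher in Nrf1-KO cells and their 24 h level lower. At 6 h the KO minus WT difference of Dusp10 was not called (-0.04, adjusted p = 0.62, edgeR). Spry4 likewise had a lower log2 response and a higher DMSO level in Nrf1-KO cells. It differed from Dusp1 and Dusp10 in that it was higher in Nrf1-KO cells at all 3 treatments. The 6 h values of Dusp6, Dusp10 and Spry2 had adjusted p between 0.0334 and 0.0454 and lost their call under several alternatives. The 24 h calls of Dusp5 (adjusted p = 0.0213, edgeR) and Dusp14 (adjusted p = 0.0156, edgeR) were also lost under DESeq2. That of Dusp5 was lost too with library size alone and when any 1 of 3 libraries was left out.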

How the results depend on the processing

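Of the 95 called values of the 10 genes over 11 comparisons, 82 kept their call and direction under every alternative run and 13 lost the call under at least 1, without a change of sign. Of the 15 values not called, 6 were called under some alternative. The cause of these changes was not tested. Without Nrf1-KO 6 h replicate 1, 4 rather than 7 genes differed in response at 6 h, and over the 12 libraries left out in turn this count ran from 4 to 7. The count past 2-fold there was 0 or, without WT DMSO replicate 3, 1. Upper-quartile scaling and library size alone each raised the changed Sprouty and Spred genes in Nrf1-KO cells at 6 h from 3 to 7. Values that changed sign, uncalled where the sign changed, were the KO minus WT difference of Dusp10 at 6 h (0.0035 with upper-quartile scaling, 0.022 with library size alone), that of Dusp8 at 6 h (-0.0256 without WT 6 h replicate 2, up to 0.17 over the libraries left out) and at 24 h (0.00012 with DESeq2, 0.030 with upper-quartile scaling, 0.0060 without the filter, 0.0025 with the compared groups only, and -0.054 to 0.112 over the libraries left out, the highest without Nrf1-KO 24 h replicate 3), the 6 h response of Spry2 in WT cells (0.0099 without WT 6 h replicate 1, down to -0.18), the 6 h interaction of Dusp14 (-0.063 to 0.097 over the libraries left out, below 0 without WT 6 h replicate 1 or 2 or Nrf1-KO 6 h replicate 1) and the 24 h interaction of Dusp4 (0.0239 without WT DMSO replicate 1, down to -1.07 without its replicate 3, where it was called). Library size alone lowered the median of all genes by 0.10 to 0.18 in the CFZ responses and upper-quartile scaling by 0.07 to 0.13. With library size alone the share of calls that rose went from 49.6% to 35.4% in WT and from 49.7% to 36.4% in Nrf1-KO cells at 6 h, from 52.0% to 41.6% in Nrf1-KO cells at 24 h, from 46.9% to 57.7% in Nrf1-KO against WT in DMSO, from 49.8% to 60.8% at 6 h, and from 49.8% to 40.03% in the 24 h interaction; with upper-quartile scaling it was 37.9% in WT cells at 6 h and went from 51.8% to 60.3% in the 6 h interaction. Libraries of the same number showed little shared deviation (mean r 0.0136 over 45 pairs, 9 of 18 libraries closest to their own number). Pairs of other numbers from different groups had a mean r of -0.0068. Whether the numbers pair the libraries cannot be decided from such small values. The replicate block left the 6 h and 24 h interaction counts at 7 and 9 and changed no other count or call of the 10 genes. Over all genes, the calls in the 6 h interaction went from 4502 to 4650 with it. Depth limits Dusp4 and Spry4 in WT DMSO, at 4 to 19 reads a library.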
